A study of Drosophila melanogaster with 4 samples.

Results

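The genes examined here encode the subunits of the 26S proteasome of Drosophila melanogaster. They were chosen by name, as every gene of the deposited table whose symbol begins with Prosalpha, Prosbeta, or Rpt or Rpn followed by a digit. This gave 47 of 17518 listed genes. Of these, 32 encode the canonical subunits, namely 7 core alpha, 7 core beta, 10 base and 8 lid subunits, and 15 are paralogs whose symbols end in T or R with or without a number, many of them known from the testis. No measured value entered the choice.

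RNA was measured in 2 lines, salm[340] mutants and wild type (WT), as polyA RNA sequencing of sorted embryonic cells labelled as myoblasts, the precursors of the larval body wall muscles. The allele 340 is a mutant allele of spalt major (salm), which encodes a zinc finger transcription factor, and the mutant embryos were homozygous. Both lines were at embryonic stage 11, after 3 h of egg laying at 25 °C and 7 h of ageing, and in both the embryos were picked by hand and the dissociated cells sorted by their GFP. The GFP construct, the cells that express it and the change made by the allele are not given in the sources used here. Each line had 2 libraries, which the submitters call technical replicates, so each n of 2 counts libraries and each p-value measures only the spread between them.

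The proteasome degrades proteins tagged with ubiquitin. Its core is a barrel of stacked rings, in which outer alpha rings gate the entrance and inner beta rings hold the proteolytic sites. A regulatory particle sits on the barrel: its base contains a ring of Rpt ATPases that unfold substrates and Rpn proteins that bind ubiquitin, and its lid removes the ubiquitin chains. The subunits are needed in fixed proportion, and in flies as in mammals their genes are switched on together by a cap'n'collar transcription factor when proteasome activity is lost.

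The make-up of the libraries differed between the lines. Counts in listed genes were 15170218 and 15668621 in salm[340], against 21857295 and 20530119 in WT. Mitochondrial genes held 60.9% and 63.2% of them in salm[340], against 24.8% and 29.3% in WT, and nuclear rRNA features 2.37% and 2.23% of the nuclear counts in salm[340], against 0.658% and 0.501% in WT. Levels below are CPM, counts scaled to a common library total after TMM normalization, which sets the bulk of genes equal between libraries, so a fold change is relative to that bulk and says nothing of RNA per cell in absolute terms. In bulk samples such as these, fewer cells of a type and less RNA per cell cannot be told apart. The RNA of salm stood at 93.3 and 97.8 CPM in salm[340], against 25.7 and 24.8 CPM in WT. Of 8 muscle lineage markers, all were detected, Mef2 among them at 262 and 290 CPM in salm[340] and 254 and 262 CPM in WT, and 4 were higher in salm[340] (how, Mhc, kirre and sns).

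All 32 canonical subunit genes were expressed in both lines, and most differed little between them. Of these 32 genes, 4 were higher in salm[340], namely Prosalpha1, Rpn13, Prosalpha3 and Rpt5, and 0 were lower (edgeR quasi-likelihood test, Benjamini-Hochberg adjusted p under 0.05 over 10738 genes tested). Over all tested genes, 17.2% were called, 10.04% as higher and 7.16% as lower. An unadjusted edgeR p under 0.05 was reached by 5 of the 32 genes, against 31.1% of all tested genes. The median log2 fold change (salm[340] minus WT) of the 32 genes was -0.00046, with an interquartile range of -0.11 to 0.16, beside a median of -0.012 and an interquartile range of -0.33 to 0.34 over all tested genes. As many canonical genes had a positive as a negative value, 16 each.

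All 4 calls held with size factors of DESeq2, upper-quartile factors, and TMM without mitochondrial genes and rRNA features. Their direction turned round with library size alone, which keeps the mitochondrial counts in the total and moves the median of all tested genes to -1.20. All 32 canonical genes were then called as lower, and 77.9% of all tested genes were called. The values of the 4 called genes then lay above that median, at -0.29 for Prosalpha1, -0.74 for Rpn13, -0.79 for Prosalpha3 and -0.82 for Rpt5. The fits without a WT library made few calls of any gene, since the lone WT library is then given the spread of the salm[340] pair. Without either WT library, 0 of the 47 genes were called and 1 had an unadjusted edgeR p under 0.05, while 14 genes were called in the whole table (0.128% without replicate 1 and 0.127% without replicate 2). The log2 fold changes without WT replicate 1 and without WT replicate 2 were 0.97 and 0.84 for Prosalpha1, 0.41 and 0.47 for Rpn13, 0.43 and 0.35 for Prosalpha3, and 0.37 and 0.37 for Rpt5. Without salm[340] replicate 1, 10 of the 47 genes were called, against 32.97% of all tested genes. The 10 include the paralog Prosbeta2R1, which was not tested with all 4 libraries and passed the filter on low counts there only through its 13 counts in the remaining salm[340] library. Without salm[340] replicate 2, 7 were called, against 31.2%. The 4 genes above were among them both times.

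**Figure D1:**
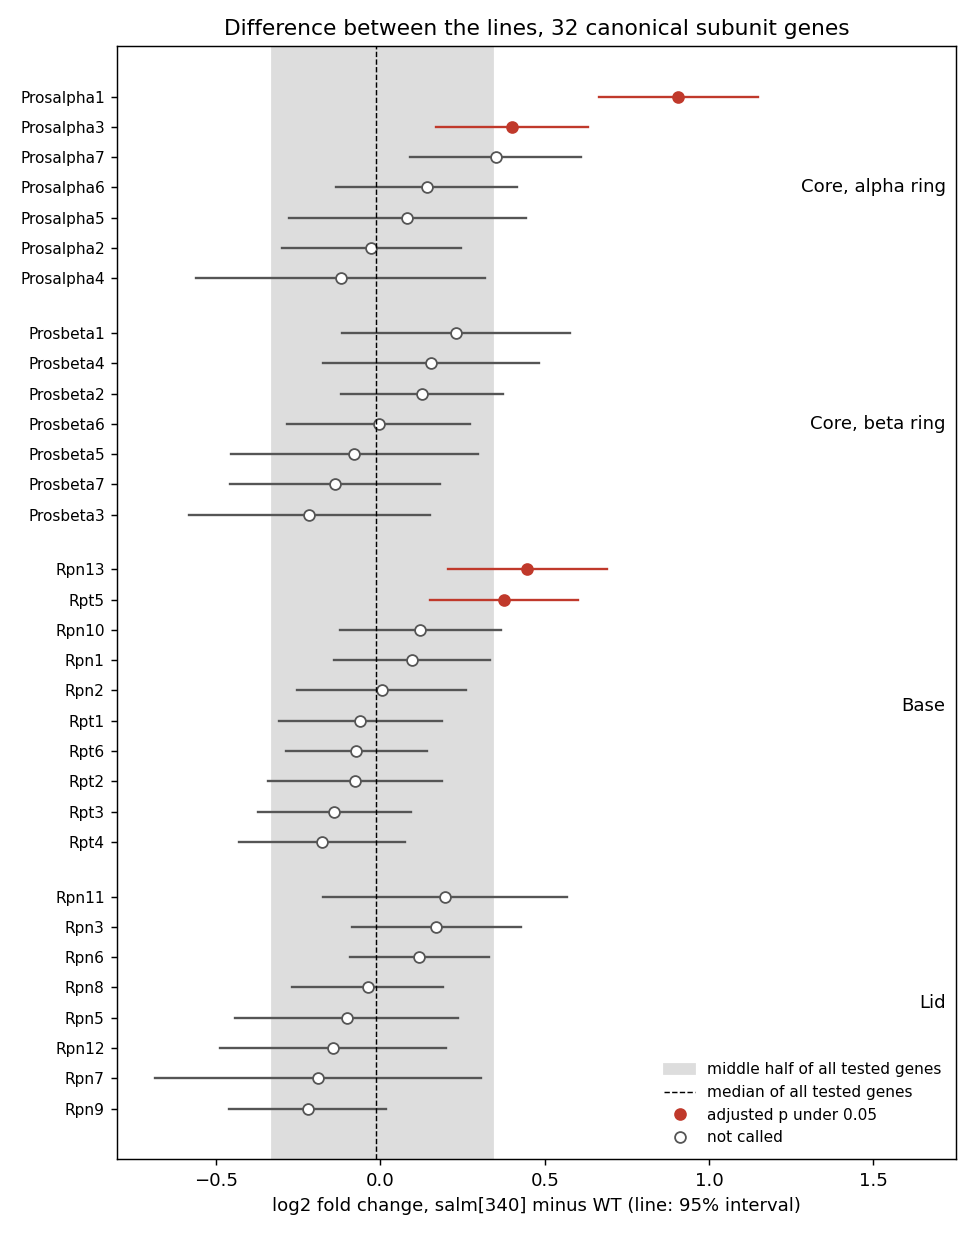
Log2 fold changes (salm[340] minus WT, TMM scaling) of the 32 canonical proteasome genes by subcomplex, with 95% intervals from the edgeR fit over 2 libraries per line. The points lie on both sides of 0, and the 4 called genes (Prosalpha1, Prosalpha3, Rpt5, Rpn13) are on the positive side, which turns negative with library size alone.

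Under TMM scaling and the spread between these libraries, the fit also bounded most of these differences. For 26 of the 32 genes, the 95% interval of the fold change lay within 1.5-fold in either direction, against 27.4% of all tested genes, which include many with lower counts and wider intervals. Both salm[340] libraries lay above both WT libraries for 10 of the 32 genes and below them for 5, and 17 overlapped. Over all tested genes, 28.4% had both salm[340] libraries above and 30.7% had both below.

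Summed over the 32 canonical genes, the level was 1113 and 1015 CPM in salm[340], against 1022 and 979 CPM in WT, or 1064 ± 69.3 and 1001 ± 29.9 CPM (SD, n = 2 each). The lines overlapped. As a share of all nuclear counts the order was turned round, with 0.192% and 0.179% in salm[340] against 0.211% and 0.204% in WT. With 2 libraries in each line, a two-sided exact permutation test of such a sum cannot go below p = 0.333, so none was used.

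Of the 7 alpha genes, 2 were called as higher, Prosalpha1 and Prosalpha3, where 10.04% of all tested genes were called as higher. The 7 alpha genes had a median log2 fold change of 0.14, 5 of them above 0 and 2 below. Prosalpha1 stood at 51.3 and 57.2 CPM in salm[340], against 30.2 and 27.6 CPM in WT. The salm[340] libraries were well apart from the WT libraries, at 54.2 ± 4.13 and 28.9 ± 1.80 CPM (SD, n = 2 each), which is 0.91 on the log2 scale (SE 0.108, 95% interval 0.66 to 1.15, edgeR adjusted p = 0.000438). This was the largest difference of any canonical subunit, 1.88-fold. Fragments shared with its repeat copy CG30382, described below, may enter these values, which are read as those of the pair.

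Prosalpha3 had 50.9 and 46.3 CPM in salm[340], against 37.8 and 35.9 CPM in WT. Both salm[340] libraries were higher, by 0.40 on the log2 scale (SE 0.103, edgeR adjusted p = 0.0261). Prosalpha7, with 35.2 and 33.5 CPM in salm[340] against 25.5 and 28.3 CPM in WT, had a difference of similar size that was not called (log2 fold change 0.35, SE 0.116, edgeR adjusted p = 0.0673). Prosalpha4 and Prosalpha2 had the lowest values of the alpha genes. Prosalpha4 stood at 15.9 and 10.9 CPM in salm[340], against 14.9 and 14.3 CPM in WT (log2 fold change -0.12, SE 0.197). Prosalpha2 stood at 26.98 and 26.3 CPM in salm[340], against 28.6 and 25.7 CPM in WT (log2 fold change -0.027, SE 0.122). The libraries of the lines overlapped for both. Prosalpha5 and Prosalpha6 lay between, at 0.082 and 0.14 on the log2 scale, and were not called.

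None of the 7 beta genes was called, and all 7 intervals lay within 1.5-fold. Their median log2 fold change was -0.0056. Prosbeta1, Prosbeta2 and Prosbeta5 carry the proteolytic sites, which in yeast and mammals cut after acidic, basic and hydrophobic residues in that order. Prosbeta1 had 29.9 and 22.04 CPM in salm[340], against 22.8 and 21.5 CPM in WT (log2 fold change 0.23, SE 0.155). Prosbeta2 had 37.2 and 34.0 CPM in salm[340], against 33.3 and 31.9 CPM in WT (0.13, SE 0.110). Prosbeta5 had 31.5 and 21.2 CPM in salm[340], against 28.2 and 27.5 CPM in WT (-0.080, SE 0.168). Of these 3, Prosbeta2 alone had both salm[340] libraries above both WT libraries, and the other two overlapped.

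The beta subunits without a proteolytic site had differences of similar size. Prosbeta4 was at 17.6 and 19.1 CPM in salm[340], against 15.8 and 17.2 CPM in WT (0.15, SE 0.147). Prosbeta3 was at 15.5 and 13.9 CPM in salm[340], against 18.5 and 15.6 CPM in WT, the lowest log2 fold change of the beta genes (-0.22, SE 0.164, edgeR adjusted p = 0.416). Prosbeta7 was at 34.1 and 25.7 CPM in salm[340], against 34.3 and 31.6 CPM in WT (-0.14, SE 0.142). Each of these differences was smaller than 2 of its standard errors. Prosbeta6 had the value nearest 0 of the beta genes (-0.0056, SE 0.125).

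In the base, the ubiquitin receptor Rpn13 and the ATPase Rpt5 were called. Rpn13, which binds ubiquitin chains and docks a deubiquitinase, stood at 67.3 and 56.2 CPM in salm[340], against 44.3 and 46.2 CPM in WT. The salm[340] libraries were the higher ones, by 0.45 on the log2 scale (SE 0.108, edgeR adjusted p = 0.0195). Rpt5, whose tail reaches into the alpha ring and helps to open the gate, had 42.7 and 42.9 CPM in salm[340], against 33.0 and 32.9 CPM in WT. Its libraries agreed closely within each line, and the log2 fold change was 0.38 (SE 0.101, edgeR adjusted p = 0.0311). With the Wald test of DESeq2, Prosalpha3 and Rpt5 were no longer called, which left Prosalpha1 and Rpn13, where 13.3% of all tested genes were called.

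None of the other 5 ATPases of the ring was called. All 5 had negative log2 fold changes, between -0.18 and -0.061. Rpt4 had 27.1 and 28.2 CPM in salm[340], against 31.8 and 30.7 CPM in WT (-0.18, SE 0.113, edgeR adjusted p = 0.331). Rpt3 had 40.3 and 42.8 CPM in salm[340], against 48.0 and 43.6 CPM in WT (-0.14, SE 0.104). Rpt6 had 46.4 and 44.7 CPM in salm[340], against 48.8 and 47.1 CPM in WT (-0.074, SE 0.0961). For these 3 genes both salm[340] libraries lay below both WT libraries, by little. Of the non-ATPase base subunits, the scaffold Rpn2 was at 41.9 and 35.2 CPM in salm[340] and 39.0 and 37.9 CPM in WT (0.0047, SE 0.115). The other scaffold, Rpn1, and the other ubiquitin receptor, Rpn10, had values of 0.095 and 0.12 and were not called.

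None of the 8 lid genes was called, and their median log2 fold change was -0.070. Rpn11, the deubiquitinase that cuts chains off the substrate, had 32.9 and 22.9 CPM in salm[340], against 25.6 and 23.2 CPM in WT (log2 fold change 0.20, SE 0.166). Its partner Rpn8, which lacks the enzymatic activity, had 39.0 and 40.5 CPM in salm[340], against 42.3 and 39.4 CPM in WT (-0.038, SE 0.103). The libraries of the lines overlapped for both. Among the lid's scaffold subunits, Rpn3 had 29.4 and 30.6 CPM in salm[340], against 27.2 and 26.1 CPM in WT (0.17, SE 0.114). Rpn9 had 30.99 and 30.2 CPM in salm[340], against 35.7 and 35.7 CPM in WT, the lowest log2 fold change of all canonical subunits (-0.22, SE 0.107, 95% interval -0.46 to 0.018, edgeR adjusted p = 0.194). Its libraries did not overlap, but the difference did not pass. Rpn5 had 28.9 and 21.3 CPM in salm[340], against 27.5 and 26.4 CPM in WT (-0.10, SE 0.152). Sem1, a small lid subunit that the choice by name leaves out, had 21.6 and 19.9 CPM in salm[340], against 16.2 and 14.1 CPM in WT (0.46, SE 0.150, edgeR adjusted p = 0.0659). It was not called, although both salm[340] libraries were higher.

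Several subunits were uneven between the libraries of the mutant. Rpn7, a lid scaffold subunit, had 331 and 179 counts in salm[340] replicates 1 and 2, against 1024 and 810 counts in WT replicates 1 and 2. Scaled, this was 32.4 and 17.6 CPM in salm[340], against 30.2 and 26.8 CPM in WT. One salm[340] library thus lay above both WT libraries and the other below both, and the gene was not called (log2 fold change -0.19, SE 0.222). Prosbeta5, Prosalpha4, Rpn11, Rpn5, Prosbeta1 and Prosbeta7 also had lower values in salm[340] replicate 2, by 0.41 to 0.57 on the log2 scale, whereas no canonical gene differed by more than 0.25 between the WT libraries. Over the proteasome genes, the chi-square per degree of freedom between replicate libraries was 4.61 in salm[340] and 1.71 in WT, beside 7.36 in salm[340] and 4.15 in WT over nuclear genes. Leaving out either salm[340] library gives its lone partner the spread of the WT pair. For these uneven genes the fold change then follows the library that is kept, so calls from such fits are no separate support.

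**Figure D2:**
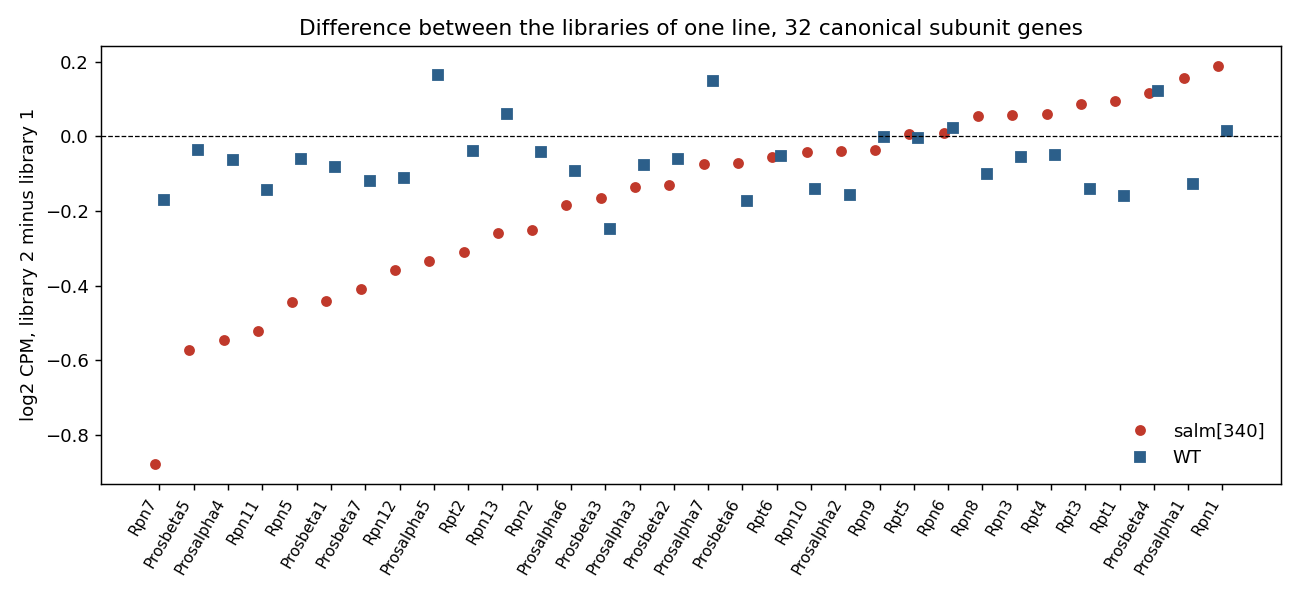
Log2 ratio of the TMM-scaled level in replicate 2 over replicate 1 for each of the 32 canonical genes, in salm[340] and in WT. The salm[340] points spread further, down to -0.88 for Rpn7, while no WT point is farther than 0.25 from 0.

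Levels of different subunits were compared per kilobase of exon length as deposited (CPM per kb). In salm[340] they reached 56.0 ± 4.27 CPM per kb for Prosalpha1 and went down to 11.3 ± 1.39 for Rpn2, a 4.95-fold range. In WT they reached 37.9 ± 1.45 CPM per kb for Prosalpha3 and went down to 11.3 ± 0.224 for Rpn2, a 3.36-fold range (SD, n = 2 each). The order was much the same in the lines, with a Spearman rho of 0.896 and a Pearson r of 0.901 on log2 levels across the 32 genes, which share libraries and lengths. Prosalpha1 had rank 1 in salm[340] and rank 4 in WT, where its 29.8 ± 1.86 CPM per kb did not differ beyond the spread from those of Prosalpha2 and Rpt3. The Prosalpha1 values may also count fragments shared with its repeat copy CG30382, described below. Its level, its ranks and the 4.95-fold range in salm[340] are thus read as those of the pair, set beside single genes. Rpn13 had rank 3 in salm[340], with 36.9 ± 4.68 CPM per kb, and rank 10 in WT, with 27.1 ± 0.790 CPM per kb. The SD of the log2 levels over the 32 genes was 0.539 in salm[340] and 0.424 in WT, and without Prosalpha1 it was 0.497 in salm[340].

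The subcomplexes overlapped in level. The highest beta subunit was Prosbeta2, at 34.5 ± 2.19 CPM per kb in salm[340] and 31.6 ± 0.950 in WT. The highest base subunit in WT was Rpt6, at 32.4 ± 0.887 CPM per kb in salm[340] and 34.1 ± 0.882 in WT. The highest lid subunit was Rpn8, at 26.0 ± 0.708 CPM per kb in salm[340] and 26.7 ± 1.32 in WT, so no lid gene reached the level of the best expressed core genes. The lowest in each were Prosalpha4 (11.4 ± 3.01 CPM per kb in salm[340] and 12.4 ± 0.379 in WT), Prosbeta3 (16.1 ± 1.29 in salm[340] and 18.7 ± 2.27 in WT), Rpn2, and Rpn5 (13.2 ± 2.86 in salm[340] and 14.2 ± 0.418 in WT).

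**Figure D3:**
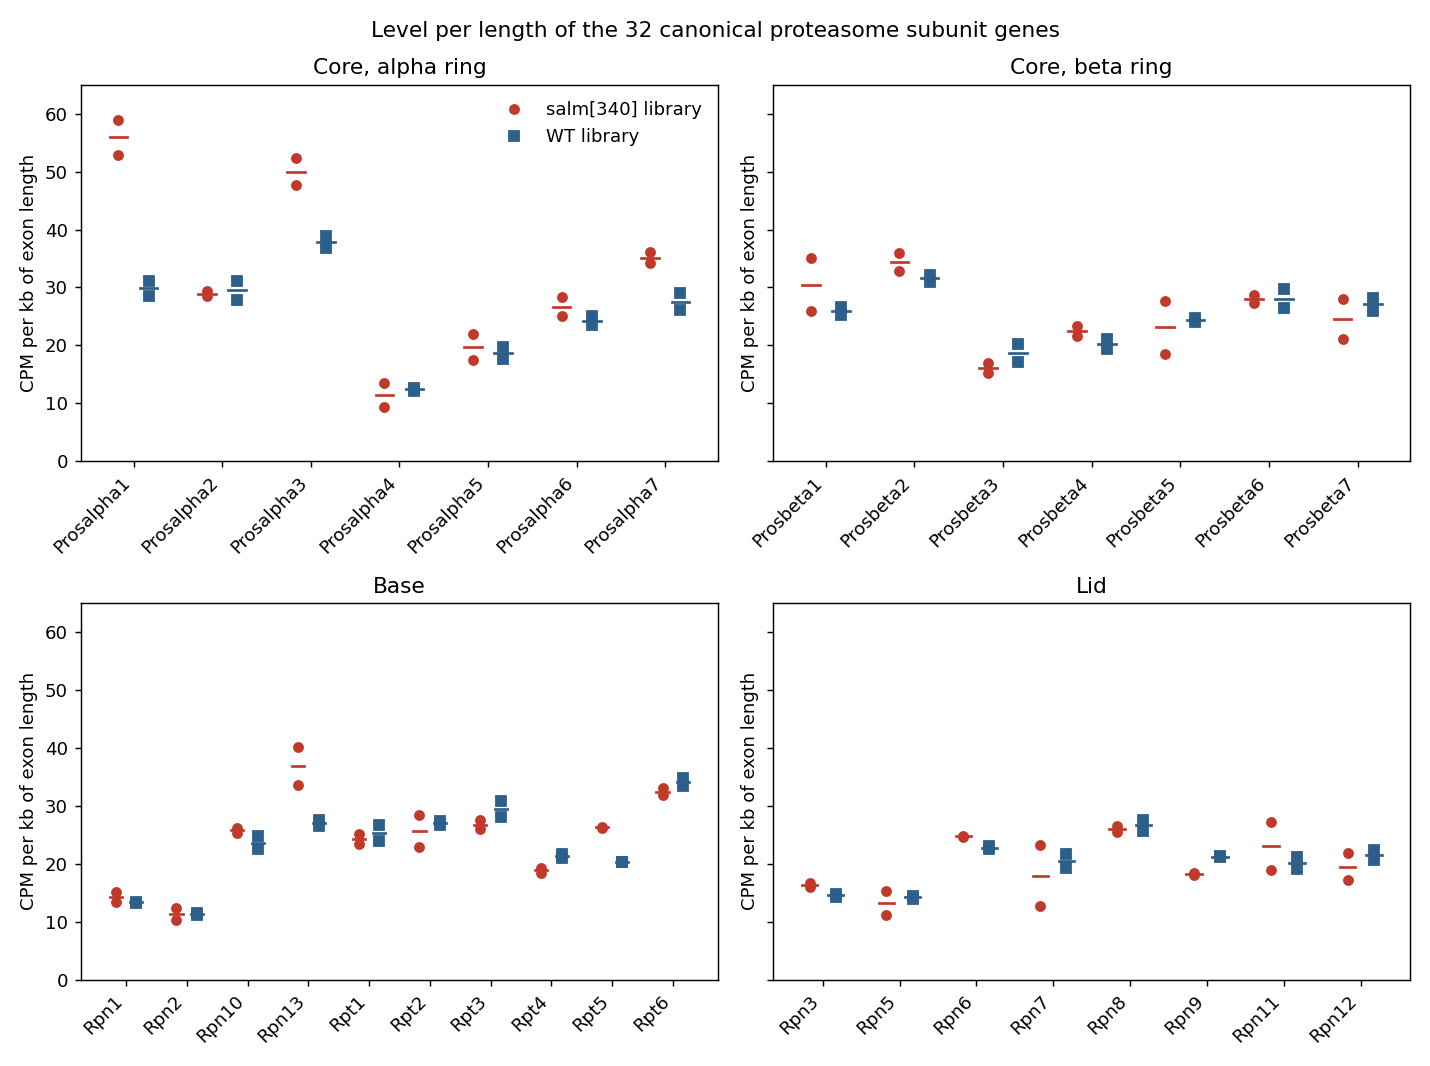
TMM-scaled level per kilobase of exon length (CPM per kb) of the 32 canonical subunits in each of the 2 salm[340] and 2 WT libraries, by subcomplex. The lines overlap for 17 of the 32 subunits. Prosalpha1 has both salm[340] points far above its WT points.

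The call on Prosalpha1 lies in a repeated stretch of chromosome arm 2R. The gene (FBgn0263121, 2R, 7827303 to 7828678, minus strand, BDGP6) lies 1735 bases from CG30382 on the same strand (2R, 7830413 to 7831771), which RefSeq names Prosalpha1R and which the choice by name leaves out. In the Ensembl annotation of release 115, where all 47 genes have the positions of the deposited table, 3 exons of 580, 177 and 100 bases and the coding length of 732 bases are equal in the 2 genes. Each overlaps a gene on the other strand by 17 bases, Prosalpha1 with phr, a photolyase gene, and CG30382 with CG18853, and these partners share a last exon of 386 bases in length. Lengths were compared and not sequences.

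The counts of these 2 copies were nearly equal in every library. CG30382 had 549 and 573 counts in salm[340], against 1024 and 830 counts in WT, where Prosalpha1 had 525 and 581 counts in salm[340], against 1024 and 834 counts in WT. The difference between the copies was thus 24 and 8 counts in salm[340], against 0 and 4 counts in WT. The authors counted fragments that map to several places for every feature they touch, so any fragment shared by the copies counts for both. How many fragments they share was not tested. The log2 fold change of CG30382 (0.93, SE 0.104, edgeR adjusted p = 0.000292) is therefore not taken as a second measurement. The value of Prosalpha1 is read as that of the pair.

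The genes around the pair differed between the lines as well. phr stood at 70.5 and 72.4 CPM in salm[340], against 15.3 and 13.7 CPM in WT (log2 fold change 2.30, SE 0.109, edgeR adjusted p = 9.86e-07), and CG18853 at 68.6 and 57.2 CPM in salm[340], against 22.7 and 18.2 CPM in WT (1.62, SE 0.138). Of the 8 other genes tested within 10 kb of Prosalpha1, 4 were higher (phr, CG18853, CG30382 and CG12822) and 1 was lower (cathD). The window was chosen after the values were seen. Among the 4, CG30382 is not taken as a measurement apart from Prosalpha1. Whether phr and CG18853, with last exons of equal length, share fragments was not tested. Over all tested genes, 10.04% were called as higher and 7.16% as lower. Within 10 kb of the other called subunit genes, 1 of 3 tested genes was higher at Prosalpha3, 2 of 7 were higher and 2 lower at Rpn13, and 1 of 8 was higher and 1 lower at Rpt5. At Rpn13, the lower gene CG42806 lies within the span of the other lower gene, Cp1, and mRpL53 and CG33155 have the same position. Whether these genes share fragments was not tested. The overlap with phr and the counting without strand mean that fragments from its 17 shared bases count for both genes, and their part in the Prosalpha1 difference was not tested. Without Prosalpha1, 3 canonical genes were called.

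**Figure D4:**
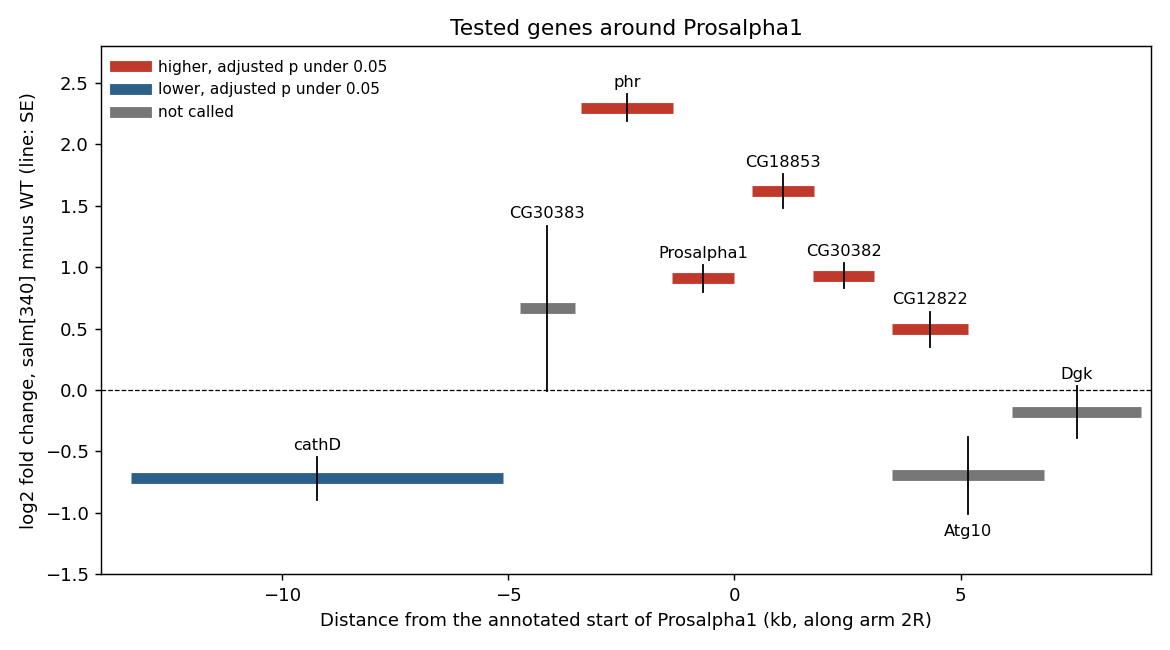
Log2 fold change (salm[340] minus WT, TMM scaling) of the tested genes around Prosalpha1. Genes are drawn as bars along arm 2R by their distance in kb from Prosalpha1, and Dgk extends beyond the stretch shown. phr, Prosalpha1, CG18853 and CG30382 lie next to each other with values of 2.30, 0.91, 1.62 and 0.93; with library size alone Prosalpha1 has -0.29.

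Of the 4 called subunit genes, 3 lie on 2R (Prosalpha1, Prosalpha3 and Rpn13), which holds 10 canonical genes, and 1 lies among the 22 on other arms (Rpt5, on 3R). On 2R, 9.81% of all tested genes were called as higher. The grouping by arm was chosen after the calls were seen. Exons of 13 canonical genes overlap those of another feature, in 14 pairs, each on opposite strands and over 1 to 182 bases, at most 12.96% of the exon length (Rpt6 with CG1801). Of the partners, phr was called as higher and CG34376, the partner of Rpn7, as lower. Among the 19 canonical genes with no such overlap, 2 were called (Prosalpha3 and Rpn13) and the median log2 fold change was 0.082. Rpt5 was not among these 19 because of 1 base shared with Hrd3, which is less than the counting minimum of 10 bases.

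The paralogs were almost silent in these cells. Of the 15, 6 had 0 counts in all libraries (Prosalpha3T, Prosalpha6T, Prosbeta4R1, Prosbeta4R2, Prosbeta5R1 and Rpn12R), 7 had between 1 and 9 counts over the 4 libraries, and 2 had at least 10. All 15 together had 9 and 20 counts in salm[340], against 30 and 40 counts in WT, beside 11386 and 10316 counts of the canonical genes in salm[340] and 34661 and 29551 in WT. A count of 0 allows up to 3 counts, or 0.293 and 0.295 CPM in the salm[340] libraries, against 0.0884 and 0.0994 CPM in the WT libraries, for counting error only. Silence at this depth was thus better bounded in WT.

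Rpt3R, a relative of the ATPase gene Rpt3, was the only paralog that passed the filter on low counts. It had 3 and 7 counts in salm[340], against 21 and 22 counts in WT, or 0.293 and 0.689 CPM in salm[340] against 0.619 and 0.729 CPM in WT (log2 fold change -0.45, SE 0.804, edgeR adjusted p = 0.748). The lines overlapped, and 20 bases of its exons overlap CG8412 on the other strand. Prosbeta2R1 had 1 and 13 counts in salm[340], against 2 and 3 counts in WT, so a single salm[340] library held most of its counts. Of 9 testis markers, Mst84Da and fzo were at 0 in all libraries, and the summed level of the 9 was 6.35 and 9.25 CPM in salm[340], against 9.82 and 12.7 CPM in WT.

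Genes that work with the proteasome were counted in 5 lists, in which 39 genes were tested and 9 called, where 17.2% of all tested genes were called. With DESeq2, 4 of the 9 calls held (RpL40, RpS27A, Uba1 and GstD1), where 13.3% of all tested genes were called. Without either WT library none of the 9 was called by edgeR, in fits that called 14 genes in the whole table. None of the 6 assembly factors and regulators was called, with a median log2 fold change of -0.13. Pomp, the chaperone that matures the core, was at 48.4 and 35.4 CPM in salm[340], against 41.3 and 42.7 CPM in WT (-0.0026, SE 0.138). None of the 8 tested genes of the COP9 signalosome, a complex built like the lid, was called either, with a median of -0.29, and CSN1a was at 0 in all libraries.

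Of the 5 genes for ubiquitin and its activating enzyme, 2 were higher and 1 was lower, where 10.04% of all tested genes were higher and 7.16% lower. RpL40 and RpS27A, each of which encodes ubiquitin fused to a ribosomal protein, were higher. RpL40 had 1927 and 1868 CPM in salm[340], against 1446 and 1419 CPM in WT (log2 fold change 0.41, SE 0.0639, edgeR adjusted p = 0.00219). RpS27A had 2303 and 2163 CPM in salm[340], against 1690 and 1706 CPM in WT (0.40, SE 0.0654, edgeR adjusted p = 0.00284). Uba1, the activating enzyme, was lower, at 63.6 and 68.4 CPM in salm[340], against 87.8 and 87.3 CPM in WT (-0.41, SE 0.0866, edgeR adjusted p = 0.0106). The polyubiquitin genes Ubi-p63E and Ubi-p5E were not called, with values of 0.011 and 0.15. With library size alone both turned negative, at -0.79 for RpL40 and -0.80 for RpS27A, beside the shift of -1.20 in all tested genes.

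Of the 11 receptors, deubiquitinases and partners of the segregase TER94, 2 were lower and none was higher, where 7.16% of all tested genes were lower and 10.04% higher. p47, an adaptor of TER94, had 21.3 and 15.9 CPM in salm[340], against 28.5 and 25.6 CPM in WT (log2 fold change -0.54, SE 0.158, edgeR adjusted p = 0.0435). Pngl, which strips sugar chains from proteins to be degraded, had 11.0 and 11.9 CPM in salm[340], against 17.01 and 19.1 CPM in WT (-0.65, SE 0.163, edgeR adjusted p = 0.0227). For both, the salm[340] libraries lay below the WT libraries. TER94 itself had a value of -0.070 and was not called.

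Of the 9 genes of the cap'n'collar (cnc) pathway and its known targets, 1 was higher and 3 were lower. Over all tested genes, 10.04% were higher and 7.16% lower. cnc, the transcription factor, had 26.4 and 24.1 CPM in salm[340], against 18.7 and 20.3 CPM in WT, and was not called (log2 fold change 0.38, SE 0.132, edgeR adjusted p = 0.0817). Its partner maf-S was higher, at 43.0 and 43.2 CPM in salm[340], against 34.2 and 29.9 CPM in WT (0.43, SE 0.111, edgeR adjusted p = 0.0270; -0.77 with library size alone). Its inhibitor Keap1 was lower, at 7.63 and 8.66 CPM in salm[340], against 12.4 and 13.3 CPM in WT (-0.65, SE 0.192, edgeR adjusted p = 0.0441). Among the targets, the glutathione transferase GstD1 was lower, at 36.5 and 38.1 CPM in salm[340], against 49.5 and 51.0 CPM in WT (-0.43, SE 0.0986, edgeR adjusted p = 0.0152). Gclc, for glutathione synthesis, was lower too, at 8.41 and 8.46 CPM in salm[340], against 13.6 and 12.9 CPM in WT (-0.65, SE 0.184, edgeR adjusted p = 0.0378). The calls of this list ran in both directions, and its median was -0.0091.

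Markers of other cells were mixed in direction within each list. Of 4 neural markers, wor and nerfin-1 were lower in salm[340], while elav and brp were not called and had log2 fold changes of 0.052 and 0.26. Their summed level, most of it elav, was 118 and 140 CPM in salm[340], against 142 and 150 CPM in WT. Of 4 hemocyte markers, Pxn was lower, and srp (-0.51), gcm (-0.36) and Hml (1.51, SE 0.922) were not called. Their sum was 37.3 and 41.5 CPM in salm[340], against 57.8 and 62.8 CPM in WT. Of 3 epidermal markers, crb was lower, and shg (-0.27) and grh (0.27) were not called. Their sum was 171 and 190 CPM in salm[340], against 202 and 214 CPM in WT. Of 5 germline markers, vas and tud were higher, and nos (0.60), pgc (-0.052) and aub (-0.31) were not called. Their sum, most of it tud, was 113 and 122 CPM in salm[340], against 79.3 and 84.6 CPM in WT. Of 2 gut markers, GATAe (0.97) and fkh (-0.56), neither was called. The 8 muscle markers had 2010 and 2144 CPM in salm[340], against 1333 and 1374 CPM in WT, and of the 4 that were not called, Mef2 and nau had positive values (0.099 and 0.013) and twi and lmd negative ones (-0.25 and -0.19). The part of these differences, and of the larger mitochondrial share, in the differences of the proteasome genes was not tested.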

How the data were processed

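The submitters' processing notes name cutadapt 2.4, STAR 2.5.4b and build BDGP6. Per the file headers, featureCounts 2.0.1 with Ensembl release 104 gave the counts, which were deposited raw. A fragment that maps to several places or touches several features was credited to each of them, with 10 bases of overlap as the minimum and no use of strand, again per the file headers.

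Counts were fitted on all 4 libraries with edgeR 4.0.16 in R 4.3.3 (TMM, filterByExpr, glmQLFit, glmQLFTest, no replicate block), after which 10738 genes remained, among them all 32 canonical subunit genes and Rpt3R. A gene was called where its Benjamini-Hochberg adjusted p over all tested genes was under 0.05. Standard errors were taken from the fold change and its F statistic. CPM are relative to TMM effective library sizes, with factors of 0.675 and 0.649 in salm[340] and 1.55 and 1.47 in WT. The script was checked on simulated counts. Alternatives were other scalings, no filter, DESeq2 1.42.0, a replicate block, each library left out, and overlapping genes or Prosalpha1 left out, the last chosen after seeing the data.

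The members, gene lists and tests were chosen with earlier results of these data known. Named were all called members, in each subcomplex the 2 highest and 2 lowest fold changes and the extremes of level per length, paralogs with at least 10 counts, and called members of the lists. Other genes were chosen after their values were seen. Promoter and protein sequences were not used here.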

Additional observations from a re-analysis of the deposited data

How the results depend on the processing

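The 4 calls on proteasome genes were the same with size factors of DESeq2, upper-quartile factors, TMM without mitochondrial and rRNA genes, and no filter. With library size alone 32 were called, all lower, with DESeq2 2, without a library 0 to 10, and without genes with overlapping exons 2. Over all genes, 8361 were called with library size alone and 14 to 3803 without a library, against 1847, and 2426 with no filter. Of these calls 58.4% were higher, against 1.005% with library size alone and 50.2% with no filter. The median of the proteasome genes (-0.0056) was -1.20 with library size alone, -0.059 to 0.10 without a library and 0.082 without overlapping genes. The log2 ratio of their summed level (0.089) was -1.10 with library size alone and 0.013 to 0.14 without a library. The SD of log2 levels in salm[340] (0.539) was 0.520 to 0.593 without a library and 0.497 without Prosalpha1. In the related lists 38 genes were called with library size alone, 4 with DESeq2 and 0 to 18 without a library, against 9. Library size alone turned Prosalpha1 to -0.29, Prosalpha3 to -0.79, Prosbeta1 to -0.96, Prosbeta2 to -1.07, Prosbeta4 to -1.04, Rpn11 to -0.99, Rpn13 to -0.74, Rpn2 to -1.19, Rpn3 to -1.02, Rpt5 to -0.82, RpL40 to -0.79, RpS27A to -0.80 and maf-S to -0.77, beside a shift of -1.20 in the median of all tested genes.

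The main fit did not pair the libraries by replicate number. The deviations of same-numbered libraries correlated at 0.042 across genes, a single value that cannot tell whether some genes share a batch. With the number as a replicate block, 2256 genes were called in all, and 5 proteasome genes, the 4 and Prosalpha7. Of the 15 paralogs, 1 had enough counts for a fold change at this depth. Where a library is left out, its lone partner is assumed to vary like the libraries of the other line.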
